A study of Rattus norvegicus with 3 samples.

Results

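Seh1 peaks of rat oligodendrocyte progenitor cells (OPC) were examined at 41 genes of 3 transcription factor families: 12 Sox genes, 19 Fox genes and 10 Klf genes. A peak belonged to a gene when the authors' annotated table of OPC peaks gave that gene as the one with the nearest transcription start site (TSS). By this rule 28 of the 41 members had a peak, beside a background of 26.7% of 20978 named coding genes. The 41 were listed with earlier results of these data known, so this count describes them and tests nothing. The 28 held 51 of the 9084 annotated peaks: 11 at 9 Sox genes, 22 at 11 Fox genes and 18 at 8 Klf genes. Seh1 is a protein of the nuclear pore complex, and the study's title places it with Olig2 and Brd7 in oligodendrocyte differentiation.

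Chromatin immunoprecipitation and sequencing was performed with an antibody to Seh1 on immature oligodendrocytes (iOL) and on OPC, 1 library per stage; IgG served for a further iOL library. The iOL had received triiodothyronine (T3) at 60 nM for 1 day in medium without PDGF-AA, bFGF and NT3, while the OPC medium held PDGF-AA, CNTF, bFGF and NT3. All cells came from forebrain of Sprague Dawley rats aged postnatal day 1 to 2, and the labels name no mutation or transgene. The iOL list held 6704 peaks of 209 bp and the OPC list 9117 peaks of 205 bp, on build rn6, of which 33 OPC peaks had no annotation. The sources used here give no read totals, and depth is therefore unknown for either library. Because each stage had 1 library, no test of the stages was made, and the 95% intervals below are exact binomial (Clopper-Pearson) or order-statistic intervals that cover counting error only. The IgG library was not analysed here. Peak positions do not allow a check of the cell type label against marker expression.

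Sox proteins bind DNA through an HMG box and act in stem cells, neural progenitors, vessels and glia. Fox proteins bind through a forkhead (winged helix) domain and act in development, metabolism and the cell cycle. Klf proteins bind GC-rich and CACCC-type sites through zinc fingers at their C terminus and act as activators or repressors, depending on the cofactors they recruit. In the oligodendrocyte lineage of mice, Sox5 and Sox6 hold back differentiation and Sox10 drives myelin gene expression. A peak near a gene locates Seh1 and gives no measure of that gene's expression.

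The promoter sequences of members were matched by symbol to RefSeq promoters of assembly GRCr8, which cover 250 bases upstream to 50 bases downstream of the annotated start, and 23 of the 41 members had one. Of the 5 members with an OPC peak within 5 kb of the TSS, Foxa2, Klf4 and Sox14 had a sequence and are printed, while Klf10 and Sox18, whose peaks were the closest, had no entry in the table used. Klf15 is added as the member with the clearest iOL peak near its TSS. The set shows how much annotated starts of these genes differ in base composition, and capitals mark CpG dinucleotides. GRCr8 coordinates are not those of the peak lists. For Foxa2 the builds also disagree on the strand: the distances of its peaks put the gene on the plus strand of rn6, and the promoter table on the minus strand of GRCr8, so its window may not be the start that the Foxa2 peaks were measured from.
Foxa2, GRCr8 chr3:155927459-155927758, minus strand: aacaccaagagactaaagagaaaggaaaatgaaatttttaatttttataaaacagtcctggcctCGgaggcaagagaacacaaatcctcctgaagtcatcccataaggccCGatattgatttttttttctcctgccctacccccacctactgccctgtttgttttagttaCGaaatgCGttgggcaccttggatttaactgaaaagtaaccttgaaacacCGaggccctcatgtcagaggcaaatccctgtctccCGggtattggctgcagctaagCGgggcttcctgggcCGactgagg
Klf4, GRCr8 chr5:75078543-75078842, minus strand: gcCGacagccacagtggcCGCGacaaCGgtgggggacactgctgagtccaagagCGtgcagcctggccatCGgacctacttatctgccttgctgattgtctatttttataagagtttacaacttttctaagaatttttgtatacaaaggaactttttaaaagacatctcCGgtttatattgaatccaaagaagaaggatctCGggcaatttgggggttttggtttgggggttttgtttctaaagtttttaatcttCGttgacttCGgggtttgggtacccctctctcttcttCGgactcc
Sox14, GRCr8 chr8:109303177-109303476, minus strand: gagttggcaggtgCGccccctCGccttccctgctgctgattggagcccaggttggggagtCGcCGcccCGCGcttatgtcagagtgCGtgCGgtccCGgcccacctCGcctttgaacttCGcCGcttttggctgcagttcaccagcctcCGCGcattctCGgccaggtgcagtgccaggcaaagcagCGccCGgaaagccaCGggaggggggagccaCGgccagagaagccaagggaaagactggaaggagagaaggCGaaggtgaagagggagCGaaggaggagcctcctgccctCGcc
Klf15, GRCr8 chr4:124522765-124523064, plus strand: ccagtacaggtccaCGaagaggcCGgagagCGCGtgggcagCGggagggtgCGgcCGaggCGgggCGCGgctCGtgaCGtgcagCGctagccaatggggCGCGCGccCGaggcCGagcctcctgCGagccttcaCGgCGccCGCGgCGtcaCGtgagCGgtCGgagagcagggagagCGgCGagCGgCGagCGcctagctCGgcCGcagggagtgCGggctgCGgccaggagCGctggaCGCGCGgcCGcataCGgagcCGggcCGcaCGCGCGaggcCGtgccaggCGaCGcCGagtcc

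The Foxa2 window held 8 CpG, the Klf4 window 11, the Sox14 window 22 and the Klf15 window 51. Over the 23 members with a sequence the median was 23 CpG per window, with a range of 1 to 51, and over all 33469 promoters of the table the median was 7. Each member gave 1 window, while the 33469 were every entry, not limited to 1 per gene or to named coding genes. This holds for the motif shares below too. Each window was searched on both strands for ACAATG (a Sox motif), TGTTTAC (a forkhead motif), CACCC (a Klf motif) and CAGCTG (an E-box, which reads the same on both strands). None of the 4 occurred in the Foxa2, Klf4 or Sox14 window, and Klf15 held 1 CACCC match. Among the 23 member windows CACCC occurred in 14, against 54.9% of all promoters. ACAATG occurred in 1 of the 23 windows, against 13.2% of all promoters, TGTTTAC in 1, against 3.78%, and CAGCTG in 2, against 15.1%. These are matches of letters and not binding sites.

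Most member peaks were intergenic. Of the 51 peaks, 39 were intergenic (76.5%, 95% interval 62.5 to 87.2), against 56.7% of all annotated OPC peaks, and 10 were in introns (19.6%, 9.82 to 33.1), against 29.4%. The promoter class held 1 peak, at Klf10, where 4.02% of all OPC peaks had that class. The exon class held 1 peak, at Sox18 (1.96%, 0.05 to 10.4), against 6.80% of all OPC peaks. Neither untranslated regions nor gene ends held any, where these made up 2.94% of all OPC peaks. A count of 0 of 51 allows a share of up to 5.88% when the limit is set at 3 counts, and its exact upper bound is 6.98%. Within 10 kb of the TSS lay 8 member peaks (15.7%, 7.02 to 28.6), beside a background of 25.4%. At 100 kb or more lay 19 member peaks (37.3%, 24.1 to 51.9), beside 26.6%. Within 50 kb lay 21 member peaks (41.2%, 27.6 to 55.8), beside 57.7%. These intervals treat the 51 peaks as independent, although 12 of the 28 genes gave more than 1 peak, and are therefore too narrow. The members were also listed with earlier results of these data known, so the shares describe them and test nothing.

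**Figure D1:**
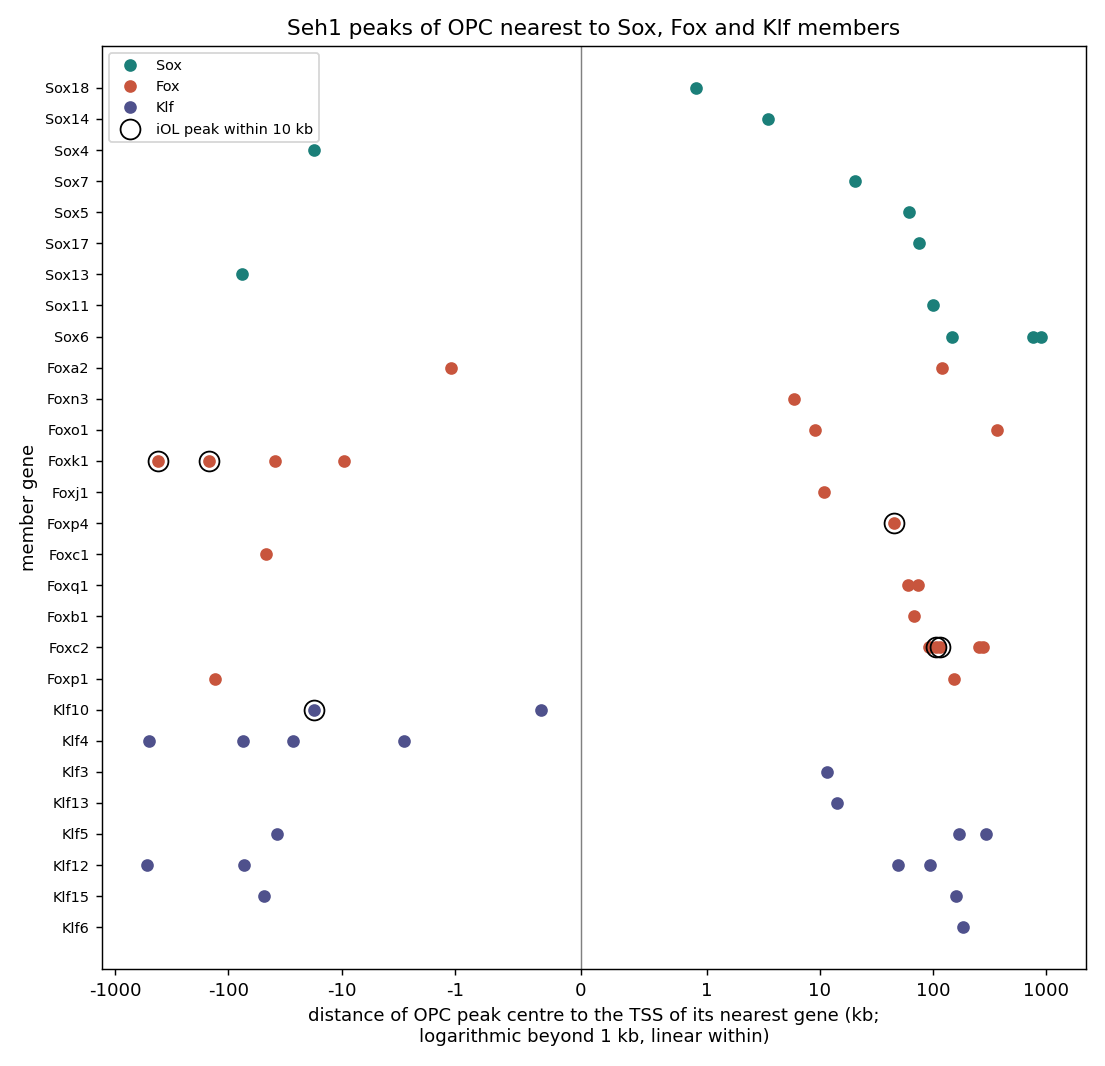
Signed distance (kb; logarithmic beyond 1 kb and linear within) from each of the 51 OPC peak centres to the TSS of its gene, 1 row per member with a peak, with negative values upstream; colour gives the family and a black ring an iOL peak within 10 kb. The peaks nearest to a TSS are those of Klf10 (-314 bp), Sox18 (916 bp) and Foxa2 (-1087 bp), and 19 of the 51 lie at 100 kb or more.

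The median distance to the TSS was 73.8 kb over the member peaks (46.8 to 107) and 34.8 kb over all OPC peaks (33.4 to 36.7). By family it was 75.5 kb for Sox (3.47 to 757), 83.3 kb for Fox (38.8 to 148) and 61.0 kb for Klf (17.5 to 171). The 3 family intervals overlapped, so an order of the families cannot be read from these counts. With only the nearest peak of each gene, the medians were 61.6 kb for the 9 Sox genes, 44.8 kb for the 11 Fox genes and 25.8 kb for the 8 Klf genes, beside 18.1 kb over all genes with a peak. Peaks on the downstream side of the TSS made up 9 of 11 for Sox, 15 of 22 for Fox and 8 of 18 for Klf, against 57.6% of all OPC peaks. The downstream share of all 51 was 62.7% (48.1 to 75.9), an interval that included the value of all peaks.

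**Figure D2:**
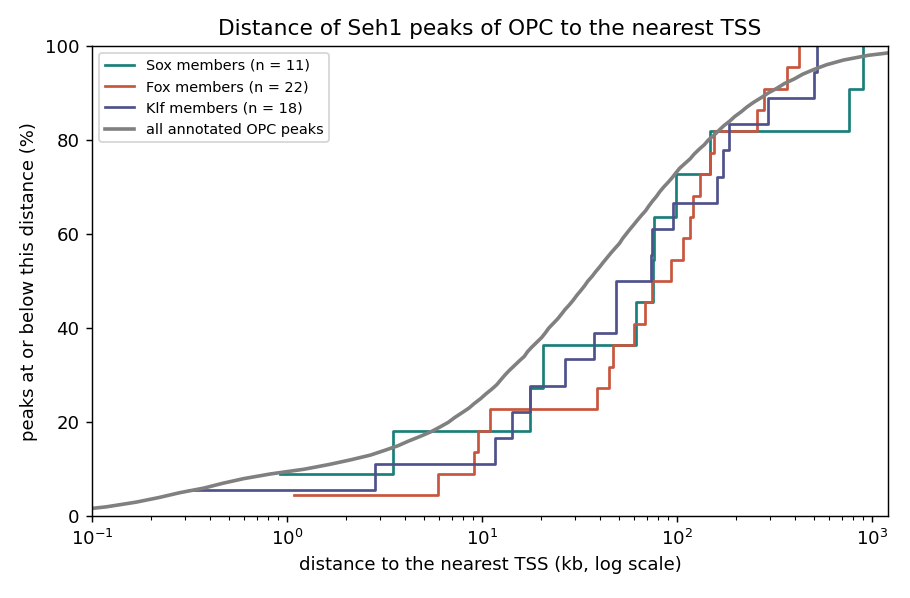
Cumulative share of OPC peaks (%) by distance to the nearest TSS (kb, log scale) for the Sox, Fox and Klf members and for all annotated OPC peaks (grey). At 50 kb the curves stand at 4 of 11 Sox peaks, 8 of 22 Fox peaks and 9 of 18 Klf peaks, and all annotated peaks at 57.7%.

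The class shares of the families had overlapping intervals, and no test of a difference between families was made. Intergenic peaks were 8 of 11 for Sox (72.7%, 39.0 to 94.0), 18 of 22 for Fox (81.8%, 59.7 to 94.8) and 13 of 18 for Klf (72.2%, 46.5 to 90.3). Intron peaks were 2 of 11 for Sox, 4 of 22 for Fox and 4 of 18 for Klf. Annotated repeats held 7 of the 11 Sox peaks (63.6%, 30.8 to 89.1), 6 of the 22 Fox peaks (27.3%, 10.7 to 50.2) and 7 of the 18 Klf peaks (38.9%, 17.3 to 64.3), beside a background of 33.2%, which lies inside each interval. The Sox peaks in repeats were in LINE elements (3), SINE elements (2) and simple repeats (2). Of the 51 member peaks 1 was in an annotated CpG island, a Klf12 peak 73.3 kb upstream, against 5.37% of all OPC peaks.

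**Figure D3:**
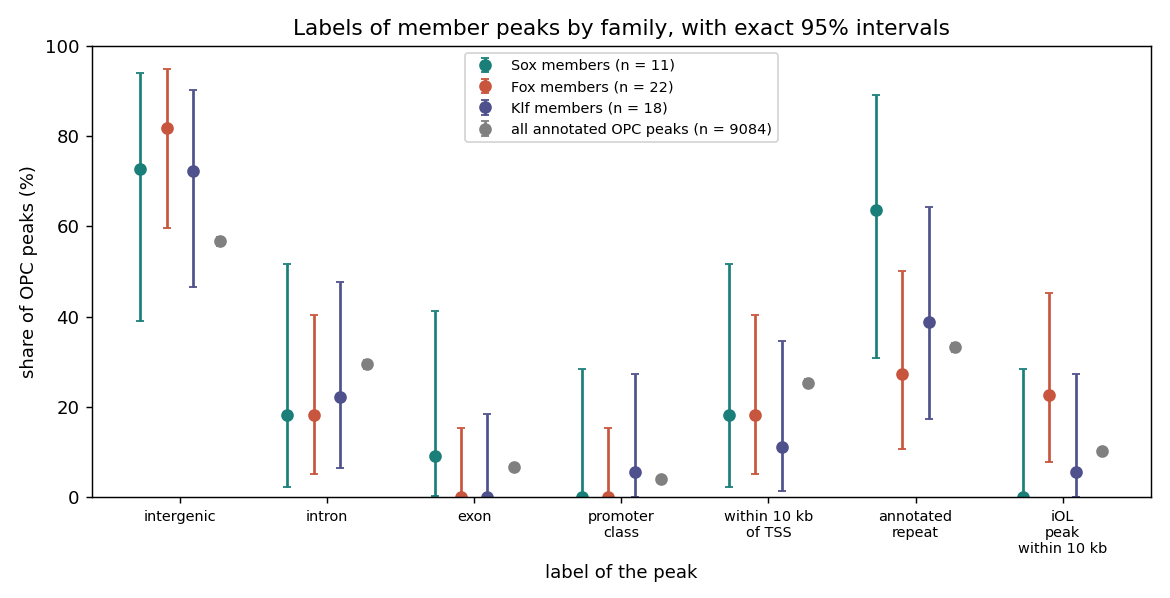
Share of OPC peaks (%) with each label for Sox, Fox and Klf members and for all annotated OPC peaks; points are shares and bars exact 95% binomial intervals. The family intervals overlap at every label, and the intergenic shares are 72.7% for Sox, 81.8% for Fox and 72.2% for Klf, beside 56.7% of all peaks.

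Among the 12 Sox members, the closest peak was at Sox18, which with Sox7 and Sox17 forms the SoxF group that acts in endothelial development. The Sox18 peak lay in exon 2 of 2, 916 bp downstream of the TSS (chr3:177178021-177178225), with a score of 7.66. Score here is the value the authors' peak caller gave each peak, whose definition the table does not state; its median over all annotated OPC peaks was 7.66. The Sox7 peak was intergenic at 20.5 kb, with a score of 6.38, and the Sox17 peak intergenic at 75.5 kb, with a score of 7.02. Sox14, a SoxB2 factor found in subsets of neurons, had an intergenic peak 3.47 kb downstream of its TSS (chr8:108106230-108106434), with a score of 7.66. Sox21, the other SoxB2 member, was the nearest gene of no peak, although all 4 coding genes next to it in gene order (2 on each side) had one.

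The SoxC genes Sox4 and Sox11, which act in neural progenitors and young neurons, had 1 peak each, both in repeats. The Sox4 peak lay 17.5 kb upstream in a (TCC)n simple repeat, with a score of 7.02, and the Sox11 peak 99.0 kb downstream in a LINE element, with a score of 6.38. The SoxD genes Sox5, Sox6 and Sox13 encode factors that lack a transactivation domain of their own. Sox5 had a peak in intron 2 of 14, 61.6 kb from the TSS and in a SINE element, with a score of 7.02. Sox6 had 3 peaks, the most of any Sox member: 1 in intron 2 of 15, 147 kb from the TSS in a (GT)n repeat, and 2 intergenic peaks 757 and 894 kb downstream, both in LINE elements. Their scores were 7.66, 8.3 and 7.66. All 5 peaks of the SoxD members lay in repeats, since the Sox13 peak, 75.9 kb upstream with a score of 6.38, was in a SINE element too. How reads with several equal matches were treated is not given in the sources used here. Its part in these repeat peaks, and in those of the Fox and Klf members, was not tested. The SoxB1 genes Sox1 and Sox2, which keep neural progenitors undifferentiated, were the nearest genes of no OPC peak. For Sox2 neither adjacent coding gene had a peak.

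Among the 19 Fox members, Foxa2, a factor of endoderm and floor plate, had the peak nearest to its TSS. This peak lay 1087 bp upstream, by the deposited distance, in a (TCTCTG)n simple repeat (chr3:142382101-142382305), with a score of 8.3, and a second Foxa2 peak lay 120 kb downstream. Foxn3, a repressor, had a peak in intron 1 of 6 at 5.96 kb, with a score of 6.38. Foxo1, a factor restrained by insulin and Akt signalling, had a peak in intron 1 of 2 at 9.07 kb, in an LTR element with a score of 8.3, and an intergenic peak at 364 kb. Foxj1, which drives the formation of motile cilia, had 1 peak just beyond the 10 kb limit, at 10.9 kb downstream with a score of 8.3. Its family members Foxb1, Foxc1 and Foxq1 had intergenic peaks between 46.8 and 73.8 kb from their starts, 4 in all. Foxf2 was the nearest gene of no peak, although it lies in GRCr8 gene order between Foxc1 and Foxq1, which both had peaks. Whether the authors' rn6 annotation held a start for Foxf2, or for the other members without a peak, was not checked.

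Foxc2, a factor of mesenchyme and vessels, had 5 peaks, the most of the 41 members. All were intergenic and downstream of the TSS, at 92.8, 107, 116, 256 and 277 kb. Their scores, in the same order, were 7.66, 9.58, 7.66, 8.94 and 10.2. The first 3 lay within 1 stretch (chr19:53137029-53160297), with gaps of 14.0 and 8.65 kb between neighbours. The Foxc2 peak at 277 kb tied with the Klf6 peak for the second highest score of the 51. Of named coding genes with a peak, 2.27% had 5 or more. In GRCr8 gene order Foxl1, the nearest gene of no peak, lies next to Foxc2. Whether the authors' annotation held a start for Foxl1 was not checked, so the 5 are the peaks assigned to Foxc2.

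Foxk1, a forkhead protein that also carries an FHA domain, had 4 peaks, all upstream, at 9.47, 38.8, 148 and 419 kb. The nearest was intergenic (chr12:14253999-14254203), with a score of 7.66, and the highest score was 9.58 at 38.8 kb, in a SINE element. The peak at 148 kb lay in a satellite repeat. Foxp4 and Foxp1 are repressors of the FoxP group. Foxp4 had a peak in intron 4 of 15, 44.8 kb from the TSS, with a score of 9.58. Foxp1 had an intergenic peak 130 kb upstream, with a score of 7.66, and a peak in intron 5 of 15 at 155 kb, with a score of 7.02. Foxp2, the third FoxP member examined, had none. The other Fox members without a peak were Foxa1, Foxd1, Foxd3, Foxf1, Foxl2 and Foxo3.

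Among the 10 Klf members, Klf10, known as a gene induced early by TGF-beta, had the only member peak of the promoter class. It lay 314 bp upstream of the TSS (chr7:77162308-77162512), with a score of 7.02, the lower quartile of all OPC peaks. The second Klf10 peak, 17.5 kb upstream in an (ACACAC)n repeat (chr7:77179486-77179690), had the highest score of the 51, 10.9. Klf4, a factor of pluripotency and epithelia, had 4 peaks, all upstream and intergenic, at 2.81, 26.6, 74.0 and 502 kb. Their scores, in the same order, were 7.02, 8.3, 5.75 and 7.02, and the 5.75 was the lowest of the 51. The nearest Klf4 peak (chr5:72290379-72290583) lay outside repeats.

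Klf3 and Klf12 belong to the repressors that recruit CtBP. Klf3 had a peak in intron 4 of 5, 11.6 kb from the TSS, with a score of 7.66. Klf12 had 4 peaks, in introns 1 and 2 of 7 at 48.6 and 94.7 kb and upstream at 73.3 and 523 kb. Of these, 3 had a score of 6.38, each in an annotated repeat, and the one in a CpG island at 73.3 kb upstream had 9.58. Klf5, an activator of proliferation in epithelia, neighbours Klf12 on chromosome 15. It had 3 intergenic peaks, 37.3 kb upstream and 171 and 292 kb downstream, with scores of 9.58, 7.02 and 8.94. The nearest Klf5 and Klf12 peaks were 582 kb apart.

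Klf6, an activator that mice and zebrafish need for normal oligodendrocyte development, had 1 peak, 184 kb downstream, in the repeat RatSatRep2, with a score of 10.2. Klf13, a repressor that recruits Sin3A, had a peak in intron 1 of 1 at 14.3 kb, with a score of 7.02. Klf15, a regulator of glucose and amino acid metabolism, had intergenic peaks 48.7 kb upstream and 159 kb downstream, with scores of 7.66 and 6.38. Klf2 and Klf7 were the nearest genes of no peak.

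Scores of the member peaks took 9 distinct values between 5.75 and 10.9, while those of all annotated OPC peaks ran from 5.11 to 197.3. Scores under 10 came in fixed steps, to within 0.01, and 7.02 and 7.66 are neighbouring values. Differences between member scores are therefore coarse and lie near the low end of the range of the list. Their medians were 7.02 for Sox, 7.66 for Fox and 7.02 for Klf. Above the upper quartile of all OPC peaks, 8.3, lay 0 of 11 Sox peaks, 5 of 22 Fox peaks and 5 of 18 Klf peaks, against 16.2% of all peaks. For Sox, the exact upper bound of 0 of 11 is 28.5%, so a share below that of all peaks was not detectable with this number of peaks. The focus ratio, a fraction that the authors' caller reports per peak, had medians of 0.722 for Sox, 0.789 for Fox and 0.757 for Klf, beside 0.778 for all OPC peaks.

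**Figure D4:**
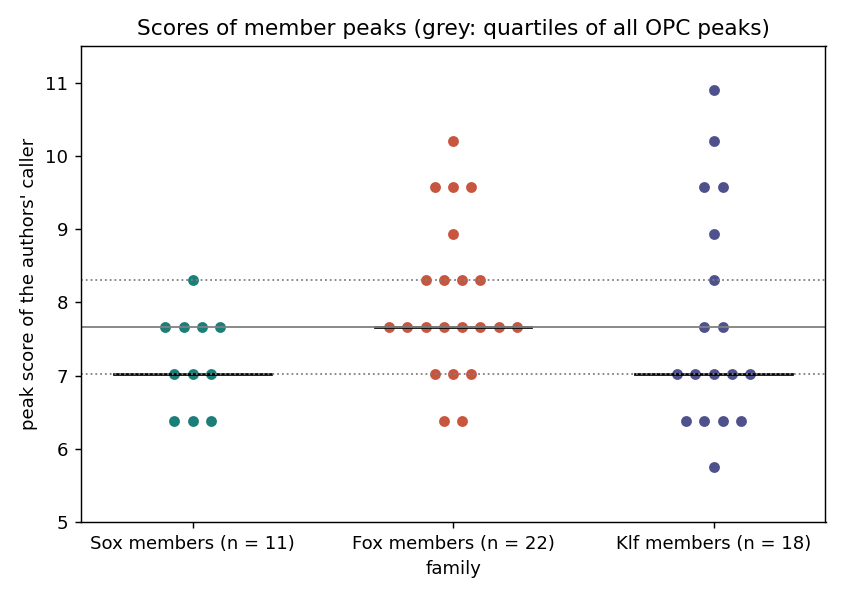
Peak score of the authors' caller for each member peak of OPC, by family; black bars are family medians, the grey line is the median of all annotated OPC peaks (7.66) and the dotted lines their quartiles (7.02 and 8.3). No Sox peak lies above 8.3, while 5 Fox and 5 Klf peaks do, up to 10.9 at Klf10.

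Peaks of the iOL list lay within 10 kb of 6 of the 51 member peaks of OPC (11.8%, 4.44 to 23.9), beside a background of 10.3% of all OPC peaks, so the members' share was near that of the list as a whole. By family the counts were 0 of 11 for Sox, 5 of 22 for Fox (22.7%, 7.82 to 45.4) and 1 of 18 for Klf (5.56%, 0.14 to 27.3). The exact upper bound of 0 of 11 for Sox is 28.5%. The 6 OPC peaks were matched by 5 iOL peaks.

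At Klf10, the iOL peak and the OPC peak 17.5 kb upstream overlapped by 32 bp. This was the only overlap among the 51 (1.96%), against 1.73% of all OPC peaks. At Foxc2, 1 iOL peak (chr19:53157758-53157966), 113 kb downstream of the TSS, lay between the OPC peaks at 107 and 116 kb. Its gaps to them were 6.32 and 2.13 kb. At Foxk1, 2 iOL peaks at 411 and 152 kb upstream lay 7.52 and 3.72 kb from the OPC peaks at 419 and 148 kb. At Foxp4, an iOL peak lay 6.78 kb from the intron 4 peak. The next closest pairs fell outside the limit, at Sox6 (10.4 kb, for the peak 757 kb from the TSS) and at Klf13 (13.4 kb).

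**Figure D5:**
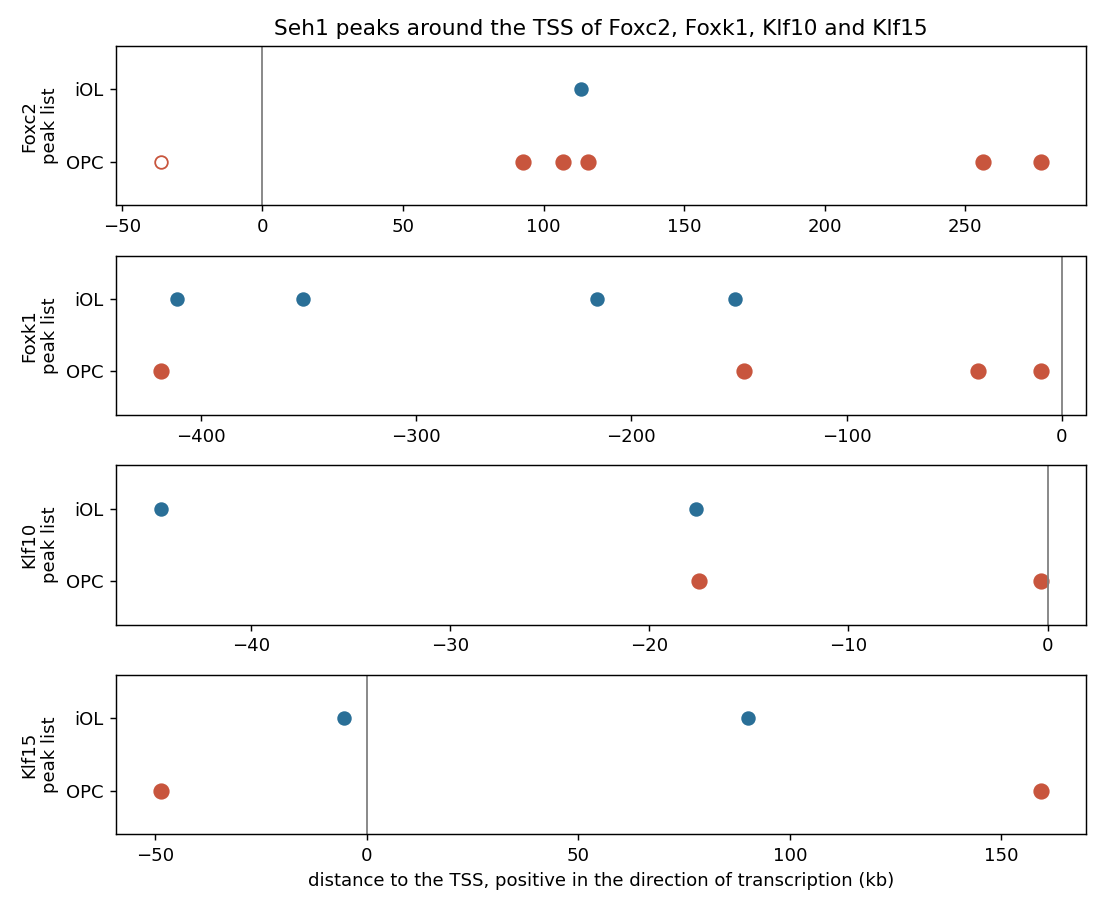
Peaks of the iOL list (blue, upper row) and of the OPC list (red, lower row) around the TSS (grey line) of Foxc2, Foxk1, Klf10 and Klf15, by distance in kb with upstream negative; filled red points are OPC peaks of the named gene and the open point an OPC peak not assigned to it. At Klf10 the peaks 17.7 kb upstream in iOL and 17.5 kb upstream in OPC overlap by 32 bp, and at Klf15 the iOL peak at 5.28 kb upstream has no OPC peak within 10 kb.

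Positions of iOL peaks relative to each start were computed from the distances of the OPC peaks, since the iOL list has no annotation. Of the 28 members with an OPC peak, Klf15 had an iOL peak within 10 kb of the TSS, 5.28 kb upstream (chr4:122359714-122359922). Its OPC peaks lay at 48.7 and 159 kb, so near this start a peak was called in iOL and none within 10 kb in OPC. For Klf13 the nearest iOL peak was either 0.655 or 27.9 kb from the TSS, depending on the strand of the gene, which a single annotated peak does not fix. For the other 26 members no iOL peak lay within 10 kb of the TSS. The share of all genes with an iOL peak this near was not computed, so these counts have no background beside them. The members with OPC peaks nearest to their starts, Klf10, Sox18, Foxa2, Klf4 and Sox14, had their nearest iOL peaks at 17.7 kb from the TSS for Klf10 and at more than 100 kb for the others. A call in only one list is no measure of a change between stages, since depth and replicate spread are unknown. The only IgG library came from iOL, so no control library of the OPC stage was available. The part of this in the OPC calls was not tested.

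The rest of the 3 families put these counts in context. Of all 81 Sox, Fox and Klf genes in the rat gene table, 39 had an OPC peak (48.1%), beside a background of 26.7% of 20978 named coding genes. The counts were 11 of 20 Sox genes, 18 of 44 Fox genes and 10 of 17 Klf genes. Within 10 kb of the TSS, 14 of the 81 had a peak, beside a background of 9.84% of named coding genes. The 40 genes that are not among the 41 had a peak in 11 cases (27.5%). The 41 were listed with earlier results of these data known, so their 28 of 41 supports nothing. The same choice left out the 40, so their share cannot be set against the background either. The 81 hold the 41, so the counts over the 81 describe the families and test nothing. Both the 81 and the 20978 genes were taken from GRCr8. Whether the authors' rn6 annotation held a start for each of them was not checked, so the background may not be like for like. Member peaks lay farther from the TSS than the list as a whole (medians of 73.8 and 34.8 kb), and a gene with more surrounding sequence can be the nearest gene of more peaks. The part of surrounding sequence in the family counts was not tested, since no rn6 annotation was used here.

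Several of the other family genes had peaks closer to the TSS than most members. Foxe1 had a peak in its 5' UTR, 125 bp from the TSS, and Foxi3 one in exon 1 of 2, 137 bp from it. Klf16 had a peak in exon 1 of 2 at 154 bp and one in intron 1 of 1 with a score of 12.1, higher than any member peak. Sox9, the astrocyte and progenitor factor of the SoxE group, had 4 peaks, of which 1 was in exon 3 of 3 at 2.67 kb. Sox8 of the same group had 3, all intergenic. Sox10, the SoxE factor that drives myelin gene expression, and Klf9, a gene known to respond to thyroid hormone, were the nearest genes of no OPC peak.

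Members with more than 1 peak were 12 of 28, against 34.5% of named coding genes with a peak. At least 4 peaks were found at 4 members, Foxc2, Foxk1, Klf4 and Klf12, where 5.40% of named coding genes with a peak had as many. None of these 4 had a peak in the promoter class, and 17 peaks in all belonged to them. A second column of the authors, with a wider promoter window, did count the Klf4 peak 2.81 kb upstream as promoter. The 4 differed in the layout of the peaks assigned to them. Whether the annotation held the starts of all genes next to these 4 was not checked. The Foxc2 peaks all lay downstream of the gene's start, the Foxk1 and Klf4 peaks all upstream, and the Klf12 peaks on both sides.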

How the data were processed

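Seh1 ChIP-seq peak lists of iOL and OPC were used. The submitters' processing notes name Bowtie2, HOMER and builds rn6 and hg18, with neither version nor role. How duplicates, peak thresholds and reads with several equal matches were handled is not given. The authors deposited 1 list of positions per Seh1 library and 1 annotated table. The table is recorded under iOL, but per the file headers its source was a peak file whose name gives OPC for Seh1 and iOL for IgG, annotated on rn6 with HOMER. The OPC list contains all 9084 table intervals and the iOL list 0, so the table was read as the OPC annotation. Its score and its focus ratio, a fraction, were deposited by the authors' caller without definition.

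Member rows were taken by gene name, and all 28 gene IDs matched the GRCr8 gene table. That table supplied names and gene order. Distances are from the peak centre to the nearest TSS, as deposited. An iOL peak was near when the gap between intervals was at most 10 kb. A TSS was located on rn6 from a gene's own peaks where these fixed its strand, and otherwise both possible positions were tried. Shares carry exact binomial intervals and medians order-statistic intervals; no test was made, since each stage has 1 library. The gap computation was tested on simulated data, with a single interval planted past the end of each OPC peak used. Overlaps, intervals before a peak and the choice among several intervals were not part of that test. Promoter sequences were planned for members with a promoter peak; since Klf10, the only one, had no entry in the table used, members with an OPC peak within 5 kb or an iOL peak within 10 kb of the TSS were used instead where the table held them; Sox18 was not in it either.

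Named were members with a peak within 10 kb of the TSS or in a promoter, exon, UTR or gene end, members with an iOL peak within 10 kb of an OPC peak, the 3 highest scores, the 5 members with most peaks, and Sox2, Sox4, Sox5, Sox6 and Sox11; the other members were named to account for all 41, and the other family genes after their values were seen. The members and lists were chosen with earlier results of these data known. Python 3.11.15, pandas 2.3.3, numpy 2.4.6, scipy 1.17.1 and matplotlib 3.10.9 were used.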

Additional observations from a re-analysis of the deposited data

How the results depend on the processing

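Of 54 alternative values for 12 family results, 37 stayed within the interval or within 1.5 times of the reported value and 17 did not. Some of the 37 could not have moved, since any part of a count of 0 is 0. These were the Sox and Fox promoter shares without repeats and with high scores. The Sox counts of nearby iOL peaks with overlap, at 5 kb and with high scores were fixed too. The promoter intervals were also wide, 0 to 28.5% for Sox and 0 to 15.4% for Fox, so staying inside them shows little. All median distances and all but one promoter share were among the 37; the Klf promoter share was 0% with only peaks at or above the upper quartile of scores, which leaves out the Klf10 promoter peak. The authors' wider promoter column, chosen after seeing the data, gave 9.09% for Sox, 4.55% for Fox and 11.1% for Klf. It gave 7.84% over all member peaks, against 12.2% of all annotated OPC peaks. The member peaks it counted were the Sox18 peak and those 314 bp upstream of Klf10, 1087 bp upstream of Foxa2 and 2.81 kb upstream of Klf4. The counts with an iOL peak nearby followed the distance allowed. For Sox the count was 1 at 20 kb and 2 at 50 kb. For Fox it was 0 with overlap, 2 at 5 kb, 11 at 50 kb and 3 with high-scoring OPC peaks. For Klf it was 3 at 20 kb and 5 at 50 kb. Of all OPC peaks, 1.73% had an overlapping iOL peak, 6.25% one within 5 kb, 17.5% within 20 kb and 34.9% within 50 kb. Over the 51 member peaks these shares were 1.96%, 5.88%, 19.6% and 35.3%. The Sox genes with an OPC peak numbered 6 within 50 kb, 3 within 10 kb, 6 without repeats and 3 with high scores, against 11. The Fox genes numbered 7 within 10 kb and 8 with high scores, against 18. The Klf genes numbered 4 within 10 kb and 6 with high scores, against 10. These settings keep fewer or more peaks by construction. The Sox median counts as kept only because its interval is wide: it was 12.0 kb without repeats and 757 kb with high-scoring peaks, which leave 1 peak, against 75.5 kb. No paired analysis was possible because each stage has 1 library and no result comes from a test. Unknown depth and the small number of peaks per family limit every comparison of the families.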
